A study of Homo sapiens with 18 samples.

Results

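The genes described here are the translation initiation, elongation and termination factors measured in HEK293T, an established line from human embryonic kidney, together with the kinases, binding proteins and methyltransferases whose symbols carry a factor's name. They were chosen by a rule on symbols that was set with earlier results of these data known. The rule took names that begin with EIF and a digit or with EEF1 or EEF2, plus EEFSEC, ETF1 and GSPT1 or GSPT2. It left out the exon-junction helicase EIF4A3 and the transport protein EIF4ENIF1. In the table of 8996 genes, 58 met this rule. Factors such as EIF3C, EIF3K, EEF1B2, EEF1D, EEFSEC, EEF2K, EIF2AK3, EIF5A2 and GSPT2 had no row and were not analysed here.

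mRNA turnover was measured by SLAM-seq, in which newly made RNA takes up 4-thiouridine (s4U) and is recognised by T-to-C conversions in the reads. All cells were wild type. Cells were kept for 3 h in STM2457, an inhibitor of the m6A writer METTL3, or in the solvent DMSO, and then received 100 µM s4U for 90 min, for 180 min or not at all. Treatment and labelling made 6 combinations, and 3 samples of each gave a total of 18. The sources used here do not give the dose of STM2457, and nothing in the labels says whether the samples of a combination were separate cultures. For each gene the table holds 1 half-life and 1 synthesis rate in either treatment and nothing for a single sample, so no spread between replicates, no p-value and no depth can be given. All differences below therefore lack a replicate check. A gene is called longer-lived in STM2457, or shorter-lived, once its half-life there was 1.5-fold above or below that in DMSO, which is a rule of size and not a test. The time unit is not named in the file. Hours are inferred from the largest half-life, 69.3, which equals ln 2 divided by 0.01 and acts as a ceiling. Of 7 genes listed as expressed in the HEK293 line, 4 had a row (LIN28B, VIM, KRT18 and NEFM), and of 8 markers of other cell types 2 did (COL1A1 and CDX2). The table holds no expression levels, so a row shows only that a fit was made.

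Initiation of translation begins when eIF2, bound to GTP and the initiator transfer RNA, joins the small ribosomal subunit with eIF1, eIF1A, eIF3 and eIF5, and the eIF4 proteins bring in the capped mRNA. After start-codon recognition eIF2 is released with GDP, and eIF2B reloads it with GTP, the step that the eIF2 kinases block under stress. Elongation factors then deliver aminoacyl-transfer RNA (eEF1A) and move the ribosome (eEF2), and eRF1 and eRF3, encoded by ETF1 and GSPT1, end the chain. Many factor mRNAs belong to the TOP class, whose transcripts start with a C followed by a tract of pyrimidines and whose translation depends on mTOR and LARP1. METTL3 deposits m6A on mRNA, and m6A is known to promote decay.

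The start sites of 8 factors are shown because TOP tracts are set beside half-lives and synthesis rates below. Each line gives 10 bases before and 20 from the annotated start, 5′ to 3′, from RefSeq (GRCh38.p14), with the pyrimidine run that starts at the first transcribed base in capitals where that base is C.

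EEF1A1 (chr6:73521013-73521042, minus strand): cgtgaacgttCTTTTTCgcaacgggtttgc

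EEF2 (chr19:3985444-3985473, minus strand): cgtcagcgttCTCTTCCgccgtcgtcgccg

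EIF4B (chr12:53006446-53006475, plus strand): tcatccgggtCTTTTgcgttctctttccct

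EIF3D (chr22:36529147-36529176, minus strand): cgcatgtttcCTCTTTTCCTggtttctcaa

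EIF3M (chr11:32583821-32583850, plus strand): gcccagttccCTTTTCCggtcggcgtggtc

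EIF4A2 (chr3:186783567-186783596, plus strand): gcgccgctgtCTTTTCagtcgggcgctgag

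EEF1G (chr11:62573872-62573901, minus strand): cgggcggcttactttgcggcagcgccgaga

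EIF2B3 (chr1:44986576-44986605, minus strand): gctgtcagtcagaggcggcgtggagatcgc

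As a group, the factor mRNAs were longer-lived than the typical mRNA in both treatments. The median half-life of the factors was 9.0 h with DMSO and 8.27 h with STM2457, against 5.61 and 5.39 h for the whole table. Of 58 factors, 48 lay above the median of all genes in DMSO and 44 in STM2457. In DMSO the values ran from 1.03 h for EIF1AD, a nuclear protein with an eIF1A domain and no known role as an initiation factor, to the ceiling, reached by EIF3L and EEF1G. In STM2457 they ran from 1.30 h, again EIF1AD, to the ceiling, reached by EIF3L, EEF1G, EEF1A1, EIF3E and EEF1AKNMT. The ceiling thus held 2 of 58 factors in DMSO and 5 in STM2457, beside 229 and 980 of all 8996 genes. More genes at the ceiling in STM2457 is therefore a feature of the whole table. Across the 58 factors the Spearman correlation between both half-lives was 0.638, and across all genes it was 0.654. Genes are not independent replicates, and both fits come from 1 experiment.

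STM2457 left the factors as a class near their DMSO half-lives, with single members far to either side. The median log2 ratio was -0.06 (quartiles -0.52 and 0.51), against -0.01 (quartiles -0.58 and 0.73) over all genes. Of 58 factors, 12 were longer-lived (20.7%), 13 were shorter-lived (22.4%) and 33 stayed within 1.5-fold. The background over the whole table was 28.5% longer-lived and 24.9% shorter-lived genes, so neither share of the factors lay above the background. The ends were held by EEF1AKNMT, a methyltransferase of eEF1A, 24.7-fold longer-lived, and by EIF2B3, 5.50-fold shorter-lived. The STM2457 half-life of EEF1AKNMT is the ceiling value, so the ceiling sets the size of its fold.

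**Figure D1:**
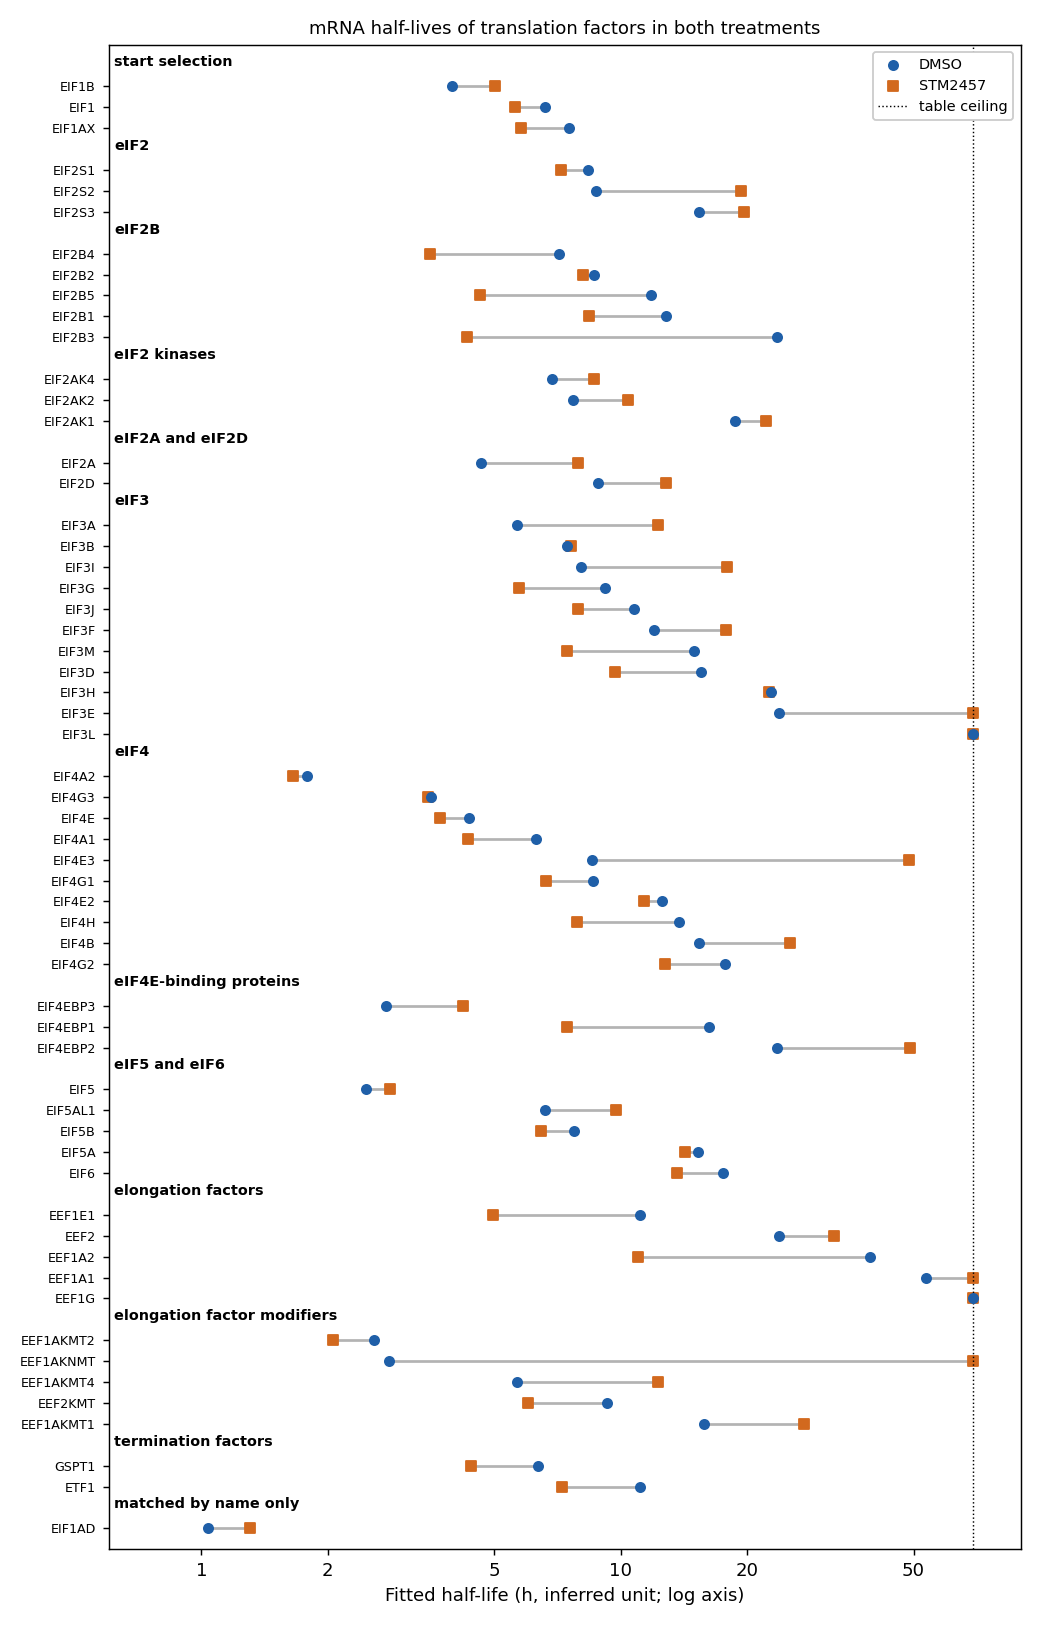
Fitted half-lives of the 58 factors in DMSO (circles) and STM2457 (squares) on a log axis in hours, grouped by role and ordered by the DMSO value, with a dotted line at the ceiling of 69.3 h. All eIF2B squares lie left of their circles, and EEF1AKNMT spans the plot from 2.81 h to the ceiling.

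Of the groups named by complex, elongation factors came first and eIF3 next in both treatments, while eIF5 with eIF6 stood last in DMSO and the third in STM2457. Elongation factors had the longest median half-life, 39.4 h with DMSO and 32.3 h with STM2457 over 5 genes. The 11 eIF3 subunits followed with 12.0 and 12.3 h. The 8 subunits of eIF2 and eIF2B had 10.3 and 7.67 h, the 10 eIF4 factors 8.56 and 7.27 h, and the 5 genes of eIF5 and eIF6 7.74 and 9.73 h. Median log2 ratios were 0.00 for elongation factors, 0.00 for eIF3, -0.10 for eIF5 and eIF6, -0.19 for eIF4 and -0.41 for eIF2 with eIF2B. Both values of 0.00 are those of a gene at the ceiling in both treatments, EEF1G and EIF3L, so the ceiling fixes them. For elongation factors the median was -1.17 without the genes at the ceiling (3 left) and 0.19 without EEF1E1, so their place among the ratios moved with these choices. With 1 value per gene, neighbours in this order cannot be told apart by a spread over samples.

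**Figure D2:**
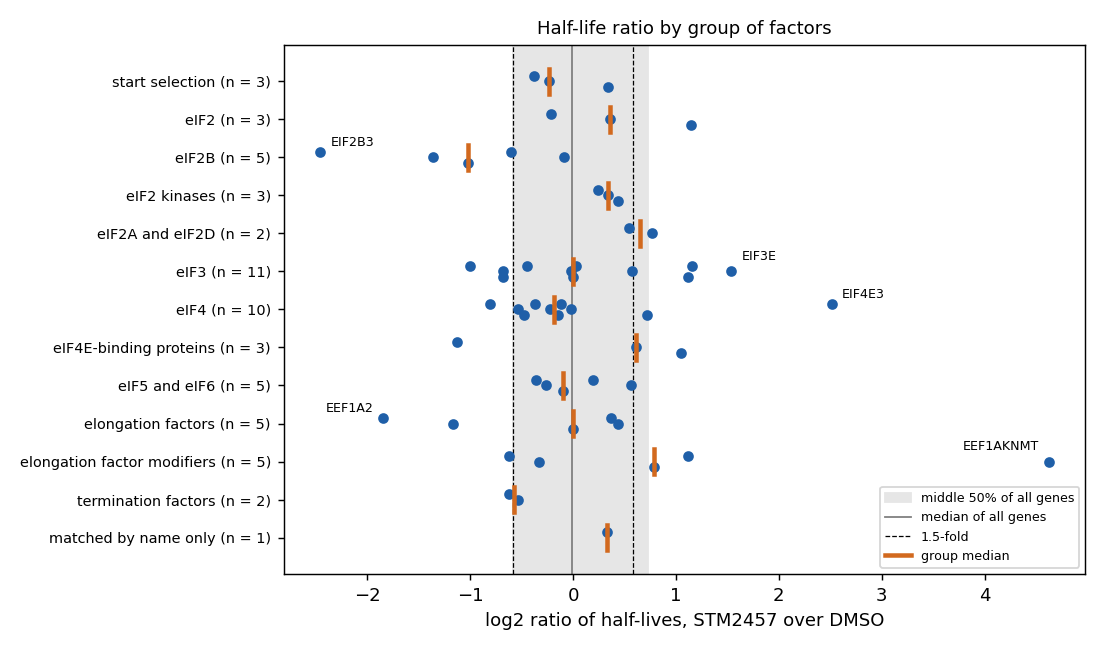
Log2 ratio of half-lives, STM2457 over DMSO, for each factor (points) by group, with the group median (thick bar), the middle 50% of all genes (grey), the median of all genes (line) and the 1.5-fold limits (dashed). The eIF2B points lie from -2.46 to -0.09, while eIF3 spreads from -1.01 to 1.54 around a median of 0.00.

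eIF2B, the exchange factor of eIF2, was the group that lay furthest to the shorter-lived side. Of its 5 subunits 4 were shorter-lived and all had a ratio below 0, with a median log2 ratio of -1.02. Over all 8996 genes 24.9% were shorter-lived and 4520 had a ratio below 0. With 5 genes, the difference from these shares was not tested. EIF2B3, the gamma subunit of the catalytic part, went from 23.6 h to 4.29 h. EIF2B5, the catalytic epsilon subunit, had 11.8 and 4.61 h, 2.57-fold shorter. EIF2B4, the delta subunit of the regulatory part, had 7.13 and 3.51 h, 2.03-fold shorter. EIF2B1, the alpha subunit that senses phosphorylated eIF2, had 12.8 and 8.42 h and passed the rule by little, 1.52-fold shorter. EIF2B2, the beta subunit, stayed at 8.66 and 8.12 h. The subunits of the catalytic part thus held the lowest ratios, and the regulatory subunits ranged from -1.02 to -0.09. Without EIF2B3 the median of the other 4 was -0.81.

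EIF2B3 had the lowest ratio of the 58 factors, with a half-life that was long in DMSO and near the middle of all genes in STM2457. EIF2B3 was singled out in advance, with earlier results of these data known, so its ranks are a description and not a discovery. Its log2 ratio of -2.46 lay 0.62 below that of EEF1A2, the next. Among all 8996 genes it ranked 41 from the bottom, and among the 7368 genes with both half-lives from 0.5 to 24 h it ranked 8. Its DMSO half-life of 23.6 h lay just inside that range, and a slightly lower limit would have left the gene out. That half-life is also far longer than the longest labelling time, and how precisely it was fitted was not tested. The DMSO half-life of EIF2B3 lay at percentile 92.1 of all genes, and its STM2457 half-life at percentile 38.8. In DMSO it was the longest-lived eIF2B mRNA, and in STM2457 it was next to the shortest, above EIF2B4. Its DMSO synthesis rate was the lowest among the factors but for EIF4E3, at percentile 5.49 of all genes, and its synthesis ratio of 1.08 (log2) lay at percentile 95.2. Both values come from 1 fit, and the product of both ratios gives an abundance in STM2457 of 0.385 times that in DMSO. The gene lies on the minus strand of chromosome 1 (chr1:44850522-44986722, GRCh38), with 0 coding motifs far from a junction, as counted below. No other gene was found annotated over it on that strand, but pseudogenes and small RNA genes were left out of this search.

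eIF2 itself did not follow eIF2B. EIF2S2, the beta subunit, was 2.22-fold longer-lived, from 8.75 to 19.4 h. EIF2S3, the gamma subunit that binds GTP and transfer RNA, had 15.3 and 19.7 h, and EIF2S1, the alpha subunit that the kinases phosphorylate, 8.38 and 7.23 h, both within 1.5-fold. The kinases all stayed within 1.5-fold with ratios above 0. Of all 8996 genes, 4190 stayed within 1.5-fold and 4313 had a ratio above 0. EIF2AK1, the haem-regulated kinase, had 18.8 and 22.2 h. EIF2AK2, the kinase PKR activated by double-stranded RNA, had 7.70 and 10.4 h. EIF2AK4, the amino-acid sensor GCN2, had 6.85 and 8.66 h. Of the alternative initiator-binding proteins, EIF2A was 1.71-fold longer-lived (4.63 to 7.90 h), and EIF2D had 8.82 and 12.8 h. EIF2A and EIF2D had ratios of 0.77 and 0.54 on the log2 scale. The start-codon factors EIF1, EIF1AX and EIF1B had half-lives from 3.96 to 7.53 h in DMSO and from 5.01 to 5.80 h in STM2457, all within 1.5-fold.

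The eIF3 subunits, which form 1 complex on the small ribosomal subunit, moved in both directions. Of 11 subunits 3 were longer-lived, 3 were shorter-lived and 5 stayed within 1.5-fold. Each of the first shares was 27.3%, near the 28.5% longer-lived and 24.9% shorter-lived over all genes. The split is therefore no trait that sets eIF3 apart. EIF3A, the largest scaffold subunit, went from 5.65 to 12.3 h, and EIF3I, a WD-repeat subunit, from 8.06 to 18 h. EIF3E went from 23.8 h to the ceiling, so the size of its ratio is set by the ceiling. EIF3M, a PCI-domain subunit, went the other way, from 15.0 to 7.45 h. EIF3D, a cap-binding subunit, had 15.6 and 9.71 h, and EIF3G 9.18 and 5.71 h, each 1.61-fold shorter. EIF3I and EIF3G, which both attach to EIF3B, thus had log2 ratios of 1.16 and -0.68, while EIF3B itself had 0.03 (7.46 and 7.62 h).

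The remaining eIF3 subunits stayed within 1.5-fold. EIF3L sat at the ceiling in both treatments, where the ratio of 0 follows from the ceiling, and its values are uncertain because AL022311.1 is annotated over its 3′ end on the same strand. EIF3H had 22.9 and 22.6 h, EIF3F 12.0 and 17.9 h, and EIF3J, a loosely bound subunit, 10.8 and 7.91 h. DMSO half-lives in this complex spanned from 5.65 to 69.3 h, and all 11 lay above the median of all genes in both treatments.

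Among the eIF4 factors, 7 of 10 stayed within 1.5-fold, as did 4190 of all 8996 genes. EIF4E, the cap-binding protein, had 4.35 and 3.72 h, and EIF4E2, a homologue linked to repression, 12.6 and 11.4 h. EIF4E3, a further cap-binding homologue, was 5.71-fold longer-lived, from 8.53 to 48.7 h. Its DMSO synthesis rate of 11.4 was the lowest of all factors, and the annotation places AC097634.4 over its 3′ end on the same strand, so its value is uncertain. The helicase paralogs EIF4A1 and EIF4A2 differed in level more than in ratio. EIF4A1 had 6.28 and 4.32 h, and EIF4A2 had 1.79 and 1.65 h, the shortest half-lives of any eIF4 mRNA. EIF4A1 has 13 named pseudogenes and AC016876.2 annotated over its 3′ end, and reads shared with these could not be traced here.

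Among the scaffolds, EIF4G1 had 8.58 and 6.65 h, and its paralog EIF4G3 3.52 and 3.47 h. EIF4G2, a scaffold that lacks the eIF4E-binding site, had 17.8 and 12.8 h. EIF4B, which stimulates the helicase, was 1.65-fold longer-lived (15.4 to 25.4 h), and EIF4H, a related protein, 1.75-fold shorter-lived (13.8 to 7.88 h). The eIF4E-binding proteins, which block cap-dependent initiation when mTOR is off, all passed 1.5-fold but in different directions. EIF4EBP1 went from 16.3 to 7.44 h and EIF4EBP2 from 23.7 to 49.0 h. EIF4EBP3 had 2.75 and 4.22 h, and is uncertain because a read-through transcript, ANKHD1-EIF4EBP3, is annotated over it.

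None of the 5 genes of eIF5 and eIF6 passed 1.5-fold. EIF5, the GTPase activator of eIF2, had 2.47 and 2.82 h, the shortest of this group. EIF5B, the GTPase of subunit joining, had 7.74 and 6.44 h. EIF6, which keeps ribosomal subunits apart, had 17.5 and 13.6 h, with AL121753.1 annotated over its 3′ end. EIF5A, the hypusine-containing factor, had 15.3 and 14.3 h. EIF5AL1, an intron-less copy of EIF5A, had 6.61 and 9.73 h, and reads of these copies could be split between them.

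The elongation factors held the most stable mRNAs, but not all of them. EEF1G, a subunit of the exchange factor of eEF1A, was at the ceiling in both treatments. EEF1A1 went from 53.6 h to the ceiling, and has 39 named pseudogenes. EEF2, the translocase, had 23.9 and 32.3 h. EEF1A2, the eEF1A form of muscle and neurons, went from 39.4 to 11.0 h, 3.59-fold shorter. The eEF1A paralogs thus stood at 53.6 and 39.4 h in DMSO but at 69.3 and 11.0 h in STM2457. All of these values except 11.0 h lie above 24 h, the upper limit of the range used for EIF2B3, and 69.3 h is the ceiling. They are also far longer than the longest labelling time, and whether the paralogs differ was not tested. EEF1E1, known as a scaffold of the synthetase complex and named for its resemblance to elongation factor subunits, went from 11.1 to 4.95 h, and shares its 3′ end with the read-through EEF1E1-BLOC1S5. Fitted DMSO synthesis rates were 246 for EEF1A1 and 14.4 for EEF1A2, on the unnamed scale of the table.

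Of the 5 enzymes that methylate elongation factors, 3 were longer-lived and 1 was shorter-lived, beside 28.5% and 24.9% of all genes. With 5 genes, a difference from these shares was not tested. EEF1AKNMT, annotated as METTL13 in the reference, went from 2.81 h to the ceiling. EEF1AKMT1 went from 15.8 to 27.4 h, and EEF1AKMT4 from 5.65 to 12.2 h, the latter with a read-through transcript, EEF1AKMT4-ECE2, over its 3′ end. EEF2KMT was 1.54-fold shorter-lived (9.27 to 6.02 h), and EEF1AKMT2, with AC068896.1 over its 3′ end, had 2.58 and 2.06 h. Of the termination factors, ETF1 (eRF1) was 1.53-fold shorter-lived (11.1 to 7.26 h), and GSPT1 (eRF3a) had 6.35 and 4.40 h, just within the rule.

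Fitted synthesis rates of the factors lay mostly above DMSO in STM2457. The log2 ratio of synthesis rates was above 0 in 42 of 58 factors (72.4%), against 45.3% of all genes, and its median was 0.21 against -0.06. Past 1.5-fold, 9 factors were made faster and 4 slower, beside 12.6% and 13.2% of all genes. All 5 elongation factors were above 0 (median 0.83), as were 10 of 11 eIF3 subunits (median 0.38) and 9 of 10 eIF4 factors (median 0.14). The highest values were 1.62 for EEF1G, 1.21 for EIF3L, 1.20 for EIF4H and 1.08 for EIF2B3. EIF4EBP3 (-1.57), EIF5A (-0.70), EEF1AKNMT (-0.61) and EEF1AKMT1 (-0.59) were the lowest. EIF3L and EEF1G had a half-life held at the ceiling in both treatments. Their 2.31-fold and 3.07-fold higher products of synthesis rate and half-life therefore rest on the synthesis rate alone. Across factors, the Spearman correlation of the half-life and synthesis ratios was -0.35, as it was over all genes (-0.353). Both ratios come from the same fit, and how far that sets the correlation was not tested.

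**Figure D3:**
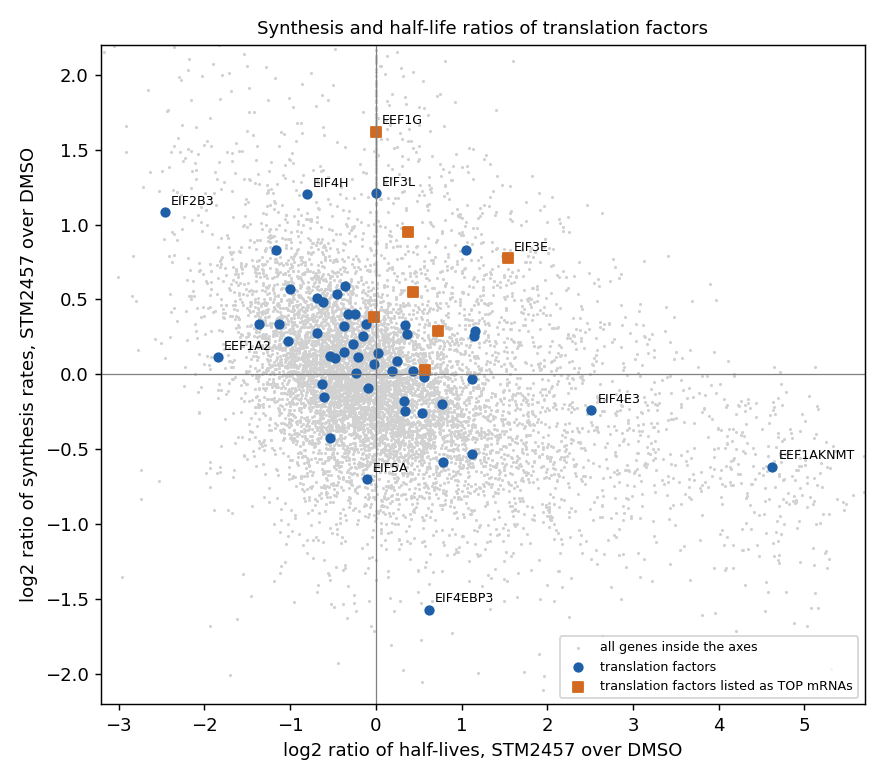
Log2 ratio of synthesis rates against log2 ratio of half-lives, STM2457 over DMSO, for the 58 factors (circles, with squares for the 7 listed TOP mRNAs) and all genes inside the axes (grey dots). All 7 squares lie above 0 on the synthesis axis, from 0.03 to 1.62.

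The 7 factors listed as TOP mRNAs were EEF1A1, EEF1G, EEF2, EIF3E, EIF3F, EIF3H and EIF4B. Half-lives of these 7 had medians of 23.8 and 32.3 h with DMSO and STM2457, against 8.58 and 7.88 h for the other 51 factors. Of the 7, 2 were longer-lived (28.6%), EIF3E and EIF4B, and none was shorter-lived. Of the other 51 factors 10 were longer-lived (19.6%) and 13 shorter-lived (25.5%). Over all genes the shares were 28.5% and 24.9%, so the longer-lived share of the 7 is that of the table. With 7 genes, the lack of shorter-lived ones was not tested. The median synthesis ratio was 0.55 against 0.14 on the log2 scale. Cytosolic ribosomal proteins, the best known TOP mRNAs, had 76 of 78 genes above 0 in synthesis (median 1.29), with 44 at the ceiling of half-life in DMSO and 58 in STM2457. Over all 8996 genes these ceiling counts were 229 and 980.

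The start sites were then searched by sequence. The motif was a C at the annotated first base followed by at least 4 bases that are each C or T, on the transcribed strand. It was found at 4.07% of all 35116 RefSeq starts and in 7.90% of the 7053 table genes with a start in the table. Of the 47 factors with a start, 10 had it (21.3%): EEF1A1, EEF2, EIF2A, EIF2D, EIF2S3, EIF3D, EIF3F, EIF3M, EIF4A2 and EIF4B. Their half-lives had medians of 15.2 and 15.3 h with DMSO and STM2457, against 7.74 and 7.26 h for the 37 factors without it. Over the table the gap was smaller, with 7.32 and 7.12 h for 557 genes with the motif. The 6496 table genes without it had 5.55 and 5.31 h. Of the 10, 8 had a synthesis ratio above 0, the exceptions being EIF2A (-0.20) and EIF2D (-0.26). Without the motif it was 26 of 37 factors (70.3%), and among all table genes with the motif it was 54.4%. The motif did not mark long half-lives in each case. EIF4A2, whose start is printed above, had 1.79 h in DMSO, and EEF1G, at the ceiling, has an A at the annotated start. EIF3D and EIF3M carry the motif and were shorter-lived in STM2457.

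The series title concerns m6A in coding regions, so DRACH motifs, the context of most m6A sites, were counted in coding sequences at a distance of 100 nt or more from any exon junction, on the coding strand and with overlaps allowed. They are letters in a transcript, and m6A itself was not measured here. The factors held few of them, with a median of 1 against 3 over 8611 genes, and 7 of 58 factors (12.1%) held 10 or more, against 25.2% of genes. Of those 7, EEF1AKNMT, EIF2A and EIF3A were longer-lived and none was shorter-lived, beside 992 longer-lived and 229 shorter-lived of all 2167 genes with as many motifs. EIF2AK4, EIF4G1, EIF4G3 and EIF5B stayed within 1.5-fold. The median log2 ratio was 0.34 for these 7 and -0.08 for the 24 factors with 0 motifs, beside 0.48 and -0.22 over all genes of these classes. Across the 58 factors the Spearman correlation of motif number and log2 ratio was 0.12, and across genes it was 0.26. EIF4E3 and EIF3E, both longer-lived, had 0 such motifs.

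**Figure D4:**
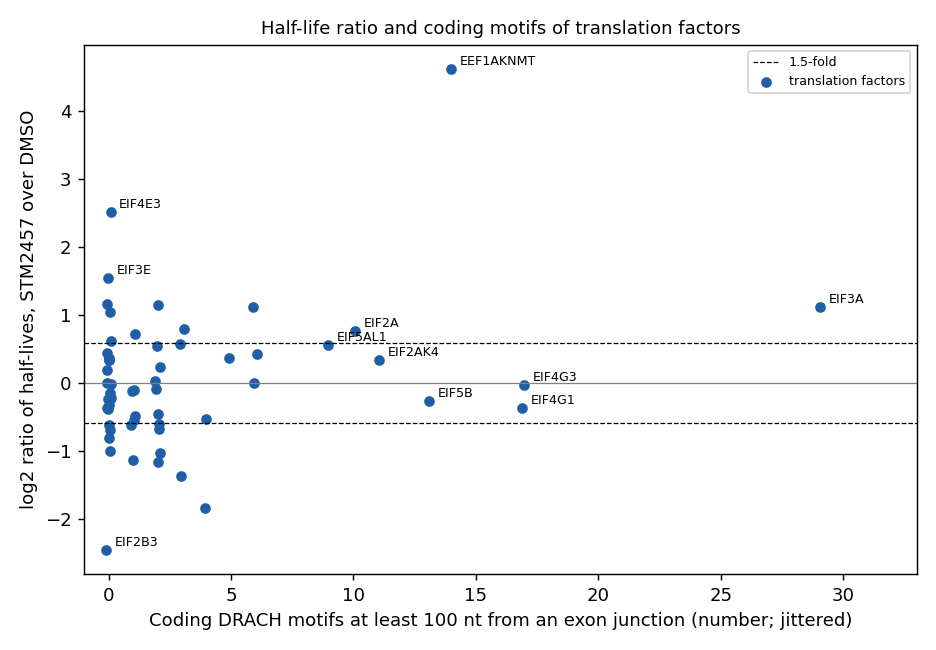
Log2 ratio of half-lives, STM2457 over DMSO, against the number of coding DRACH motifs 100 nt or more away from exon junctions for the 58 factors (points jittered sideways), with the 1.5-fold limits dashed. EIF3A has 29 motifs and a ratio of 1.12, while EIF4G1 and EIF4G3 have 17 each and ratios of -0.37 and -0.02.

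The stretches of 90 coding bases that hold the most such motifs are printed for 4 factors because each lies in a long exon of a factor with 10 or more motifs. They come from GENCODE release 29 transcripts (GRCh38), 5′ to 3′ on the coding strand, with the counted motifs in capitals. EEF1AKNMT and EIF3A were longer-lived, and EIF4G1 and EIF4G3 stayed within 1.5-fold.

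EEF1AKNMT (exon 2 of 8, chr1:171783918-171784007, plus strand): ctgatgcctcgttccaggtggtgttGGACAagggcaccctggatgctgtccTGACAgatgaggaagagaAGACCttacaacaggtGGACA

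EIF3A (exon 19 of 22, chr10:119042427-119042516, minus strand): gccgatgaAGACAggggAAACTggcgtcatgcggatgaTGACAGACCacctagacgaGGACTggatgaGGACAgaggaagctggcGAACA

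EIF4G1 (exon 9 of 32, chr3:184321496-184321585, plus strand): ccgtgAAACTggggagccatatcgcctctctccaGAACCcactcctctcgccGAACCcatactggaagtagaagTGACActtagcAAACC

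EIF4G3 (exon 11 of 34, chr1:20942013-20942102, minus strand): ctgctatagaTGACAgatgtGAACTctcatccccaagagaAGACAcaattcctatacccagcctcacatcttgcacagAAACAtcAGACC

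The windows hold 4, 7, 5 and 5 motifs in this order. The exon of EEF1AKNMT is 760 nt long, that of EIF3A 779 nt, that of EIF4G1 822 nt and that of EIF4G3 840 nt.

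Other genes that act with the factors were taken from lists of 33 genes, of which 28 had a row. Of these, 5 were longer-lived (17.9%) and 8 shorter-lived (28.6%), with a median log2 ratio of -0.21. Over all genes the shares were 28.5% and 24.9%, so the shorter-lived share lay near that of the table. On the eIF2 side, PPP1R15B, the constitutive subunit of the eIF2 phosphatase, went from 0.874 to 2.36 h, while its stress-induced counterpart PPP1R15A stayed at 0.839 and 0.731 h. BZW2, a decoy relative of eIF5, went from 26.4 to 9.76 h. On the cap and poly(A) side, CYFIP1, a partner of eIF4E in repression, went from 5.44 to 18.7 h, PABPC1, the cytoplasmic poly(A)-binding protein, from 15.7 to 34.9 h, and PAIP2, its inhibitor, from 12.0 to 5.63 h. The other longer-lived genes were IMPACT, an inhibitor of GCN2 activation (6.49 to 14.3 h), and MKNK1, a kinase of eIF4E (3.87 to 5.95 h). Also shorter-lived were PAIP1 (5.13 to 2.71 h) and BZW1 (11.4 to 7.30 h). PABPC4 had 4.67 and 3.32 h, within 1.5-fold. LARP1 had 7.19 and 7.72 h. Of 3 recycling and reinitiation genes, MCTS1 (26.1 to 13.3 h) and ABCE1 (5.60 to 3.62 h) were shorter-lived and DENR was not. Of 8 enzymes and factors of hypusine, diphthamide and selenocysteine, DHPS, which starts hypusine synthesis on eIF5A, was shorter-lived (9.73 to 5.03 h), as was the diphthamide enzyme DPH5 (6.52 to 3.87 h). The other 6 stayed within 1.5-fold, the highest being DPH2 at 7.32 and 10.8 h.

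Beside these, aminoacyl-tRNA synthetases had 15 of 32 genes shorter-lived (46.9%) and 7 longer-lived (21.9%), with a median log2 ratio of -0.52. Over all genes 24.9% were shorter-lived and 28.5% longer-lived. No test of a difference between the factors and these genes was made.

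The levels implied by the fits were set beside the time spent in the inhibitor. The product of synthesis rate and half-life gives the steady level each fit implies. Starting from the DMSO level, 6 h of STM2457 synthesis with no decay sets the most that could be reached. This bound was exceeded by 16 of 58 factors, among them 8 of the 12 longer-lived. It was not computed for the other genes, so these counts have no background share. EIF3H, with 22.9 and 22.6 h, also exceeded it, at an implied 1.29-fold against a reachable 1.24-fold. For EEF1AKNMT the fit implies 16.1-fold against a reachable 1.97-fold, for EIF3E 4.97 against 1.30, for EIF4E3 4.85 against 1.41 and for EIF4EBP2 3.68 against 1.31. EIF2A, EEF1AKMT1, EEF1AKMT4 and EIF4EBP3 stayed under it. A value at the ceiling has no upper size in the table.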

How the data were processed

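The submitters' processing notes name FastQC 0.11.9, STAR 2.7.8a and the build GRCh38.p12. The sources used here do not give the kinetics tool, the annotation, the gene filter or which libraries entered each fit. Libraries were made from the 3′ ends of iodoacetamide-treated RNA, per the labels' protocols, which add that 1 library had a lower input. It could not be matched to a sample. The deposited table holds half-lives, synthesis rates and the log2 ratio of each between treatments. Recomputing the half-life ratios changed them by at most 1.27e-14. As no counts are given, the depth behind each value and its precision cannot be stated.

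Genes were described by the log2 half-life ratio with a size rule of 1.5-fold and no test. A half-life within 1e-06 of the largest counted as at the ceiling. The factors, EIF2B3 as the gene to be placed, the groups, the lists of other genes and the TOP list were chosen with earlier results of these data known. Genes were named by rule: every member of a group of up to 8, in larger groups those past 1.5-fold and the highest and lowest, paralog pairs, and the highest and lowest of the other lists. EIF3B, EIF3F, EIF3H, EIF3J, EIF3L, EIF4G2, PPP1R15A, PABPC1, PABPC4, PAIP1, BZW1, IMPACT, MKNK1, LARP1, ABCE1 and DPH5 were added after their values were seen. All 58 factors matched GENCODE release 29 by identifier without version, 14 with it. For each gene the longest coding sequence was taken, and 98.5% of 8611 coding sequences began with ATG (56 of 58 factors). Start sites were matched to RefSeq by symbol for 47 factors. The size rule and the motif counter were tested on simulated data. Alternatives were another fold, a half-life range, means, no ceiling values, left-out genes and other motif settings. Computations ran in Python 3.11.15 with pandas 2.3.3, NumPy 2.4.6 and SciPy 1.17.1, and figures in Matplotlib 3.10.9.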

Additional observations from a re-analysis of the deposited data

How the results depend on the processing

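No paired analysis was possible because the table has no column for a single sample, and for the same reason no replicate could be left out. Of 36 alternative values, 19 stayed within 1.5 times the count, or within 0.1 of the median or correlation. With the lower of the other size limits, 22 factors were longer-lived and 21 shorter-lived, and with a fold of 2, 8 and 7. With both half-lives from 0.5 to 24 h, which selects on the outcome, the median log2 ratio was -0.21 over all factors (47 left), -0.30 for eIF4 and -1.17 for elongation factors, where 1 gene, EEF1E1, was left. Without genes at the ceiling it was -1.17 for elongation factors (3 genes). Without EEF1E1 it was 0.19, and without EIF2B3 that of eIF2B was -0.81, both chosen after seeing the data. Means in place of medians were 0.052 over all factors, -0.53 for eIF2 with eIF2B, 0.14 for eIF3, 0.053 for eIF4, 0.0036 for eIF5 with eIF6 and -0.44 for elongation factors. The Spearman correlation of coding motifs and log2 ratio was 0.27 at the larger distance from a junction and 0.27 with GGACH. Leaving out 8 factors with shared 3′ ends or a near-identical copy gave 10 longer-lived and 12 shorter-lived. That check kept EIF4EBP3, EEF1G, EIF4B, EEF1AKMT1, EIF3J and GSPT1. Each of these has another gene annotated over it on the same strand, but not over its 3′ end. EEF1G and EIF4B also have 8 and 9 named pseudogenes.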
